A study of Mus musculus with 58 samples.

Results

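The 10 genes Pecam1, Cdh5, Kdr, Flt1, Vwf, Emcn, Egfl7, Esam, Cldn5 and Sox17 are markers of vascular endothelial cells, and their level was followed in adipose stem cells (ASC) that had been sorted against an endothelial surface protein. They were found in the count table by their Ensembl mouse gene identifiers, and all 10 of 10 were present among 56953 rows. The 58 libraries came from inguinal white adipose tissue (iWAT) of C57BL6/J mice and were sequenced in bulk with Smart-seq3. Cells were sorted as CD45-/CD31-/CD34+, and DPP4- cells were called ASC1 while DPP4+ cells were called ASC2. CD31 is the protein made from Pecam1, so cells carrying it at the surface were gated out in all 8 groups, controls included. The groups were control males (ASC1, n = 7; ASC2, n = 8), castrated males (n = 8 and 8), control females (n = 8 and 8) and ovariectomized (OVX) females (n = 3 and 8), operated at 4 weeks of age and terminated at 10 weeks after a 4 h fast. The labels name no altered allele. Libraries carry a letter, from A to H in the control groups and from I to P in the castrated and OVX groups. No letter is shared between controls and operated mice, so an effect of surgery cannot be told apart from one of the letters. The labels do not say that libraries with the same letter came from the same mouse, so p-values measure the spread between libraries.

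Endothelial cells form the inner lining of blood vessels and are held together by adherens and tight junctions. In adipose tissue a dense capillary bed supplies adipocytes, and part of the ASC lie along its vessels, so endothelial cells are released with ASC when the tissue is digested. Growth of these vessels is driven by vascular endothelial growth factor (VEGF) acting on receptors that endothelial cells carry.

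Several groups of libraries stood apart. Xist and 4 Y-chromosome genes did not match the sex on the label in 28 of 58 libraries, by the thresholds given below. These were all 8 castrated male ASC1, 4 of 7 control male ASC1 and 4 of 8 control male ASC2 libraries (E to H in both), and 6 of 8 libraries in each of the control female groups. Some carried both kinds of transcript. Control female ASC2 library E had Xist at 87.1 and the Y-chromosome genes at 36.4 CPM, and control male ASC2 library E had 50.2 and 22.6 CPM. All 8 castrated male ASC2 and all OVX libraries matched. Groups are named by their labels throughout. The 3 OVX ASC1 libraries had 9122 to 11622 genes detected and a summed level of 4 fibroblast genes of 43144 to 45105 CPM (counts scaled to a common library size), against 5122 to 9137 in control female ASC1. Castrated ASC2 libraries I and J had 5808 to 6451 CPM of 7 macrophage and leukocyte genes, against 1303 to 2372 CPM in castrated ASC2 libraries K to P. Control male ASC1 libraries B, C and D had 5215 to 6280 CPM of the same genes, against 560 to 636 CPM in control male ASC1 libraries E to H. Castrated ASC1 libraries K to P had 95.8 to 176 CPM of 5 mesothelial and visceral depot genes, against 6.38 to 19.7 CPM in I and J, although all were labelled as iWAT.

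Sequences are shown for Kdr and Egfl7, the receptor and the secreted protein that were called both after castration and between the sexes in ASC2. The 250 bases before the transcription start were taken from RefSeq (GRCm38.p6), which held 5 of the 10 genes (Kdr, Flt1, Emcn, Egfl7 and Cldn5). No entry was used for Pecam1, Cdh5, Vwf, Esam or Sox17. Capitals mark GGAA or its reverse complement TTCC, the core bound by ETS transcription factors, a family with known roles in endothelial gene expression. The Kdr window lies at chr5:75978456-75978705 on the minus strand. The 3 Egfl7 windows lie at chr2:26580833-26581082, chr2:26583615-26583864 and chr2:26586386-26586635 on the plus strand. All are written 5′ to 3′ on the strand of the gene.
Kdr: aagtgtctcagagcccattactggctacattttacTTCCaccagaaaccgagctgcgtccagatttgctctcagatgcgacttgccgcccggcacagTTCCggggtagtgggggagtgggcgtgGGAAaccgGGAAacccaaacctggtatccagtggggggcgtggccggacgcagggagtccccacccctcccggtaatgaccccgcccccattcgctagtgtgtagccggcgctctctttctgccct
Egfl7, start 1: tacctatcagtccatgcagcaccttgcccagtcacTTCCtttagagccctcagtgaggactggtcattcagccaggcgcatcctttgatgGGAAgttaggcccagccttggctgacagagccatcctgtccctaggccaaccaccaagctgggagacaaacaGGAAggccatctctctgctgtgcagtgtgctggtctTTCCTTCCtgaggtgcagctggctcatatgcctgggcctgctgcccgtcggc
Egfl7, start 2: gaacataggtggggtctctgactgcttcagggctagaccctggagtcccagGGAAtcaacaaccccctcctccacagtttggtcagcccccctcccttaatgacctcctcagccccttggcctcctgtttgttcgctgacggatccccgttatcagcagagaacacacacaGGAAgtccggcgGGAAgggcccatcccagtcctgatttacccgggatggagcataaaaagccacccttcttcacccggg
Egfl7, start 3: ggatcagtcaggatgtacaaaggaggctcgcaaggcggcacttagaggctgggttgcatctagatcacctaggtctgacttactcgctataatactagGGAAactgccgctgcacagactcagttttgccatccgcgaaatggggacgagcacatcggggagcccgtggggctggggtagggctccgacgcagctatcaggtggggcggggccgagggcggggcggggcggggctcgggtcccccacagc

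Kdr held 4 matches, and the 3 Egfl7 windows held 5, 3 and 1. Flt1 and Emcn held 4 each and Cldn5 held 0. These numbers are common ones, since GGAA or TTCC was present in 93.4% of 32851 promoters of the same length, with a median of 3 matches and at least 4 in 33.4%. The longer AGGAAG (or CTTCCT), which contains GGAA, was found in 29.5% of all promoters. It was present in Flt1 (2 matches), Emcn (2 matches) and the first and second Egfl7 windows (3 and 1 matches), and absent from Kdr, Cldn5 and the third Egfl7 window. A match is only a match of letters, and no binding was measured.

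All 10 genes were detected, but at low levels. Together they gave 5150 estimated reads over the 58 libraries, 102 of 580 values were 0, and the 10 genes were seen together in 6 libraries. The summed level ran from 22.9 to 264 CPM with a median of 125 CPM. Divided by transcript length, the median level of Egfl7 was 24.8 CPM per kb, followed by Esam at 8.33, Pecam1 at 5.62, Emcn at 3.83, Cdh5 at 3.49, Cldn5 at 2.27, Kdr at 1.47, Flt1 at 0.619 and Vwf at 0.449 CPM per kb. On the same scale the fibroblast genes Dcn and Pdgfra stood at 1467 and 56.9, the sorted antigen gene Cd34 at 136 and the leukocyte antigen gene Ptprc at 1.18 CPM per kb. The median of each endothelial gene lay below those of Dcn and Pdgfra, and all but Flt1, Vwf and Sox17 (median 0) lay above Ptprc, whose product CD45 was also gated out. The macrophage and leukocyte genes Lyz2 and Cd68, at 640 and 67.9 CPM per kb, lay above every endothelial gene. In bulk libraries fewer cells of a type and less RNA per cell cannot be told apart, and this holds for every level below.

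Sox17, a transcription factor of arterial endothelium, gave 6 reads in 6 libraries: 1 in control male ASC1, 1 in castrated ASC1, 2 in castrated ASC2 and 2 in control female ASC1. It was at 0 in the other 4 groups, where a count of 0 allows up to 0.457 CPM in control male ASC2, 0.528 CPM in control female ASC2, 0.559 CPM in OVX ASC2 and 2.38 CPM in OVX ASC1 (3 reads over the group, counting error only). Sox17 did not pass the filter on low counts (at least 5 reads in more than 3 libraries), so 9 of the 10 genes were tested.

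The first question was whether castration moved the endothelial genes, asked in ASC2 and in ASC1 apart. In ASC2 most genes of the endothelial list were higher after castration: 6 of the 9 tested rose (Pecam1, Cdh5, Kdr, Vwf, Egfl7 and Esam), 0 fell, and 9 of 9 had a log2 fold change above 0. Over all 12464 genes tested 6.96% were called, 2.65% as higher. The median log2 fold change was 1.34 for the 9 genes and 0.004 for all genes. The summed level of the 10 genes was 45.1, 67.2 and 118 CPM (lowest, median and highest) in control and 156, 180 and 264 CPM in castrated ASC2, with means of 72.3 ± 24.3 and 189 ± 36.4 CPM (SD, n = 8 and 8). All 8 castrated libraries lay above all 8 controls.

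Among the junction genes, Pecam1, which encodes a homophilic adhesion molecule at endothelial contacts, was at 6.36, 12.1 and 32.4 CPM in control and 11.2, 32.9 and 54.3 CPM in castrated ASC2. The groups overlapped, with control libraries A, B, C and E inside the castrated range. The log2 fold change was 1.07 (SE 0.33, adjusted p = 0.0396, edgeR quasi-likelihood test with Benjamini-Hochberg adjustment, as for all adjusted p-values below). Cdh5 encodes VE-cadherin, the adherens junction cadherin of endothelium, and stood at 1.19, 3.81 and 18.4 CPM in control and 12.8, 16.1 and 22.9 CPM in castrated ASC2. Control libraries D and E reached the castrated range and the other 6 lay below it. Cdh5 rose by 1.34 on the log2 scale (SE 0.38, adjusted p = 0.0222). Esam, an adhesion molecule of endothelial tight junctions, was at 2.23, 9.26 and 19.1 CPM in control and 12.8, 22.2 and 36.3 CPM in castrated ASC2, a log2 fold change of 1.27 (SE 0.35, adjusted p = 0.0177). Its groups overlapped between 12.8 and 19.1 CPM. Cldn5, the main claudin of endothelial tight junctions, rested on 3 reads in 2 of 8 control libraries and 16 reads in 6 of 8 castrated libraries. Its log2 fold change of 2.14 (SE 0.80) did not pass (adjusted p = 0.0884), and its groups overlapped.

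Of the VEGF receptors, Kdr (VEGFR2, the main signalling receptor) was at 0, 4.36 and 7.69 CPM in control and 6.47, 14.1 and 31.9 CPM in castrated ASC2. Castrated libraries I and P lay within the control range and the other 6 lay above it, library K highest. Kdr rose by 1.68 on the log2 scale (SE 0.46, adjusted p = 0.0162). Flt1 (VEGFR1, which binds VEGF and limits its action on Kdr) stood at 0, 4.24 and 6.29 CPM in control and 3.19, 5.47 and 15.3 CPM in castrated ASC2. Most of these values lay in one shared range, with castrated library J apart at the top, and the log2 fold change of 0.68 (SE 0.55) did not pass (adjusted p = 0.505).

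Vwf encodes von Willebrand factor, the platelet-binding protein that endothelial cells store and release. It was at 0, 0.902 and 11.7 CPM in control and 6.37, 11.98 and 18.6 CPM in castrated ASC2, with control library A alone inside the castrated range. Its log2 fold change was the highest of the called genes at 2.16 (SE 0.60, adjusted p = 0.0180), on 18 and 72 reads. Emcn encodes endomucin, a sialoglycoprotein of capillary and venous endothelium, and stood at 0, 9.06 and 26.8 CPM in control and 11.97, 21.2 and 46.4 CPM in castrated ASC2. Control libraries A and D lay within the castrated range, and the log2 fold change of 1.04 (SE 0.42) did not pass (adjusted p = 0.123). Egfl7, a secreted protein of the endothelial matrix, gave 9.50, 15.1 and 32.4 CPM in control and 36.2, 57.9 and 69.6 CPM in castrated ASC2, with means of 18.6 ± 9.17 and 56.7 ± 10.8 CPM (SD, n = 8 and 8). It was the one gene of the 10 whose groups did not overlap, which 0.168% of all genes tested did in this direction. Egfl7 rose by 1.55 on the log2 scale (SE 0.25, adjusted p = 3.17e-05) and is the gene of the list with the most reads.

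**Figure D1:**
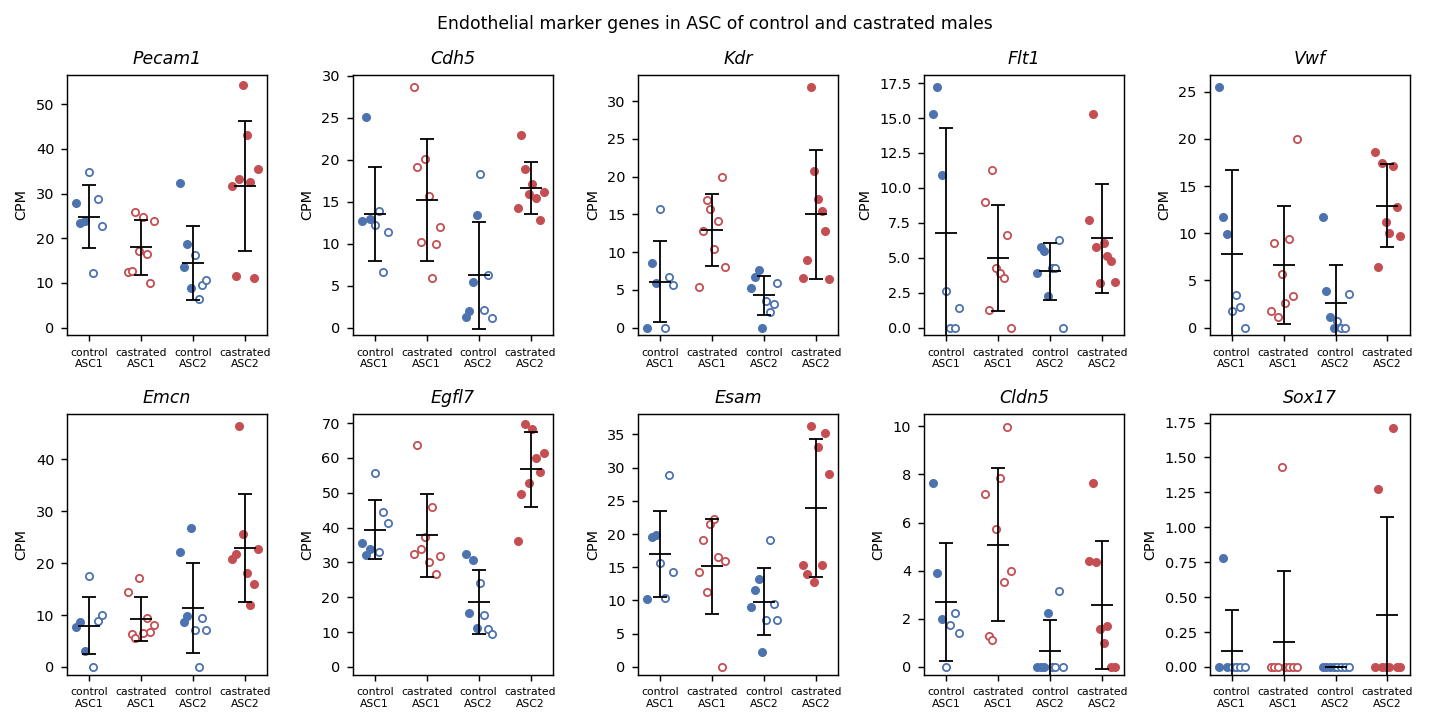
Level of each of the 10 endothelial genes in CPM (linear axis, one panel per gene) in the libraries of the 4 male groups. Points are libraries, bars are the mean and SD, and open points are libraries whose sex-chromosome transcripts do not match the label. In castrated ASC2 the Egfl7 points run from 36.2 to 69.6 CPM and lie above all control ASC2 points, while the ASC1 groups overlap in every panel.

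The sex labels touched these counts, because 4 control ASC2 libraries did not match them. Among those, Egfl7 was at 9.50 to 24.0 CPM, and among the 4 that matched it was at 11.2 to 32.4 CPM. When only matching libraries were used (8 castrated against controls A to D), 2 genes were called, Cdh5 at a log2 fold change of 1.78 (adjusted p = 0.0214) and Egfl7 at 1.31 (adjusted p = 0.00369), with 6.6% of all genes called. All 9 tested genes remained above 0 there, with a median of 1.31. Without castrated libraries I and J, an alternative chosen after seeing the data, 5 genes were called (5.6% of all genes), and Cdh5 missed the threshold (adjusted p = 0.0509). The endothelial sum of I and J was 156 to 159 CPM, against 161 to 264 CPM in K to P. Leaving out single libraries gave 4 to 6 called genes, with 4 without control library B. Kdr, Vwf, Egfl7 and Esam were called in 16 of 16 of these fits, Cdh5 in 15 (not without control B) and Pecam1 in 6 (not without control B, D, F, G or H or castrated I, L, M, N or P).

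In ASC1 no endothelial gene was called after castration. By edgeR 0 of 9 genes passed, 0 had an unadjusted p under 0.05, and DESeq2 also called 0, beside 2.36% of all genes. Of the 9 genes 4 were above 0 and 5 below, with a median log2 fold change of -0.04 (all genes, -0.01). The summed level was 74.7, 129 and 156 CPM in control and 93.2, 125 and 146 CPM in castrated ASC1, so the castrated range lay within that of the controls. Egfl7 was at 32.1, 35.7 and 55.8 CPM in control and 26.6, 33.1 and 63.8 CPM in castrated ASC1, a log2 fold change of -0.04 (SE 0.25, adjusted p = 0.999). Kdr was the gene nearest to a call, at 0, 5.97 and 15.7 CPM in control and 5.38, 13.5 and 19.97 CPM in castrated ASC1 (log2 fold change 0.91, SE 0.46, adjusted p = 0.398). Its groups overlapped, and 3 castrated libraries lay above all controls. Pecam1 was at 12.2, 23.9 and 34.9 CPM in control and 9.99, 16.9 and 26.0 CPM in castrated ASC1 (log2 fold change -0.45, SE 0.35). The remaining 6 genes had log2 fold changes from -0.42 (Flt1) to 0.92 (Cldn5).

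Flt1 and Vwf in ASC1 depended on control libraries B, C and D, those with the high macrophage sum. Flt1 was at 15.3, 17.2 and 10.9 CPM in B, C and D and at 0 to 2.62 CPM in E to H, and Vwf was at 25.5, 11.7 and 9.95 CPM against 0 to 3.47 CPM. The 2 sets of libraries did not overlap for either gene. Without B, C and D, an alternative chosen after seeing the data, Flt1 turned from -0.42 to 1.87 and Vwf from -0.30 to 1.66, and still 0 genes were called. B, C and D are also the control ASC1 libraries that matched the male label, and as all 8 castrated ASC1 libraries went against it (Xist at 51.9 to 118 CPM), no comparison of matching libraries could be made in ASC1.

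**Figure D2:**
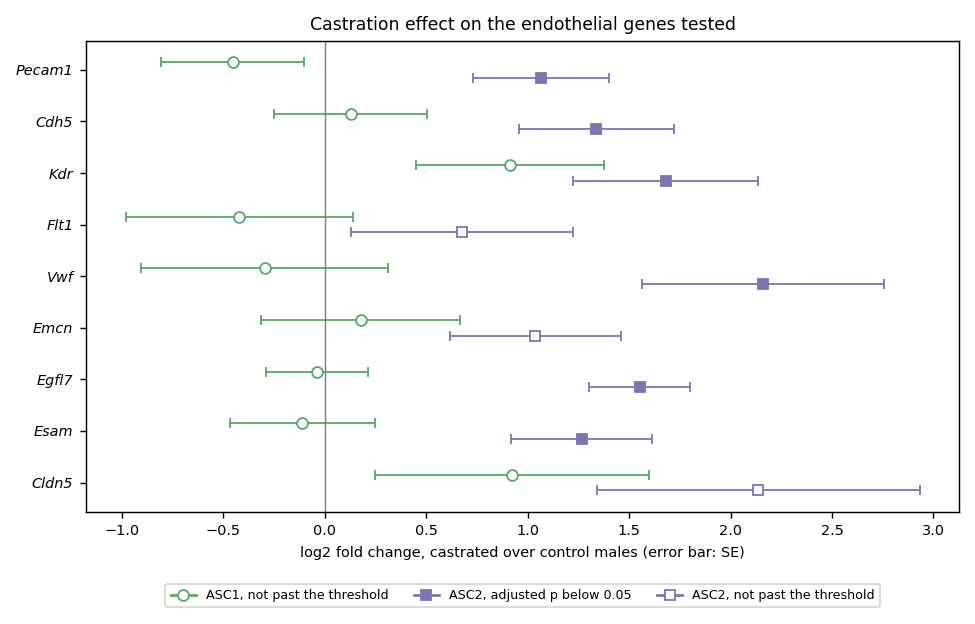
Log2 fold change (castrated over control) with its SE for the 9 endothelial genes tested, in ASC1 and in ASC2, where filled points passed the threshold on the adjusted p. The ASC2 values run from 0.68 to 2.16 and 6 are filled, and the ASC1 values lie from -0.45 to 0.92 with none filled.

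Whether the castration effect differed between the cell types was tested as an interaction term. All 9 genes had a larger log2 fold change in ASC2 than in ASC1, by a median of 1.21. Of them 1 was called, Egfl7, with a difference of 1.59 (SE 0.35, adjusted p = 0.00523), beside 2.41% of all genes (1.53% as higher). Egfl7 was called in all 31 fits that left out a library of these groups. Pecam1 differed by 1.52 (SE 0.49, adjusted p = 0.0778) and Vwf by 2.45 (SE 0.85, adjusted p = 0.113), which did not pass. For the other genes called in ASC2 the difference did not pass either, from 0.77 for Kdr to 1.38 for Esam. Without control ASC1 libraries B, C and D the difference of Flt1 went from 1.10 to -1.20 and that of Vwf from 2.45 to 0.49. All 8 castrated ASC1 libraries went against the male label, while all 8 castrated ASC2 libraries matched it. A difference between the cell types therefore cannot be told apart from this mismatch, and no fit of matching libraries could be made.

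Other endothelial genes were taken from a list of 28 blood endothelial genes, of which 21 were tested. In ASC2 15 were above 0 after castration, with a median log2 fold change of 0.87, 4 rose and 1 fell. Their summed level did not follow, at 657, 907 and 1389 CPM in control and 518, 806 and 1450 CPM in castrated ASC2, and its correlation with the sum of the 10 genes over the 58 libraries was -0.13 (0.17 after centring). Those that rose were Eng, a coreceptor for TGF-beta (31.9 ± 14.8 CPM in control, 81.5 ± 32.4 CPM in castrated; log2 fold change 1.35, adjusted p = 0.00997), Gpihbp1, which carries lipoprotein lipase to the capillary lumen (6.19 ± 4.79 and 16.9 ± 8.26 CPM; 1.37, adjusted p = 0.0191), and Icam2 and Ptprb, which averaged under 5 CPM and were named after their values were seen. Tek, the angiopoietin receptor, fell by 1.02 on the log2 scale, from 130 ± 39.3 to 65.2 ± 19.9 CPM (adjusted p = 0.0258). The sum of the 28 genes leaned on a few of them, as Ly6c1 alone averaged 611 ± 269 CPM in control male ASC2. Tek and Ly6c1 also differed by cell type, being higher in ASC2 than in ASC1 of controls. On the log2 scale Tek was higher by 1.87 in males and 2.05 in females, and Ly6c1 by 1.31 and 2.93. Of the 21 genes tested in that comparison 4 were called higher and 4 lower in males, and 4 and 2 in females. Among 5 genes of fatty acid handling (Fabp4, Cd36, Lpl, Pparg and Fabp5), which are not particular to endothelial cells, Fabp5 rose by 1.25 on the log2 scale (adjusted p = 0.0253). Their summed level had a correlation of 0.15 with the sum of the 10 genes. Lymphatic endothelial genes were near the limit of detection: 3 of 6 were tested, 0 were called, and their summed level was 0 to 6.49 CPM in control and 2.19 to 12.8 CPM in castrated ASC2. In ASC1 the same 28 genes had 1 call in each direction, Ctla2a at a log2 fold change of 4.97 (30.8 ± 12.05 CPM in control, 956 ± 572 CPM in castrated) and Ly6c1 at -1.62, with a median of -0.29 and a summed level of 339, 588 and 704 CPM in control and 368, 1555 and 1771 CPM in castrated ASC1.

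Markers of other cell types moved with the ASC2 result. Of 7 macrophage and leukocyte genes 6 were tested, 6 were above 0 and 2 rose, Lyz2 by 1.46 (adjusted p = 0.0164) and Cd68 by 1.23 (adjusted p = 0.0404) on the log2 scale. Their summed level was 688 to 1935 CPM in control and 1303 to 6451 CPM in castrated ASC2 (1303 to 2372 CPM without I and J). Cd163 was at 0 in 5 of 8 libraries of each group. Of 10 mural genes 9 were tested, Kcnj8 rose by 1.54 and Notch3 by 1.52, and Rgs5 fell by 2.05 on the log2 scale, with summed levels of 145 to 1180 and 248 to 1398 CPM. The fibroblast gene Dcn fell by 1.37 on the log2 scale, and the summed fibroblast level was 7047 to 11584 CPM in control and 3024 to 6641 CPM in castrated ASC2. Wt1, a marker of mesothelium and visceral fat, was at 0 in all controls and was seen in castrated libraries I and J alone. It is one of 5 mesothelial and visceral depot genes, of which 5 were above 0 with a median log2 fold change of 4.63 and 2 rose, Wt1 by 4.92 and Upk3b by 4.65. Wt1 and Upk3b averaged under 5 CPM and were named outside the rule given below. With Wt1 at 0 in the controls, its fitted value depends on the prior count and is no bound. Their summed level was 0 to 26.7 CPM in control ASC2, 57.0 to 89.2 CPM in castrated I and J and 25.7 to 68.2 CPM in K to P. The part of these cells in the endothelial result was not tested. In castration in ASC1, 6 of 6 tested macrophage genes were below 0 and 3 fell (Ptprc, Lyz2 and Cd68). The macrophage sum was 599 to 869 CPM in castrated ASC1, beside 560 to 636 CPM in control libraries E to H and 5215 to 6280 CPM in B, C and D.

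The relation of the endothelial sum to these markers was described over all 58 libraries, which share differences in depth and between groups. The summed level of the 10 genes had a Pearson correlation of 0.69 with the macrophage sum on the log scale, which was 0.38 after the group means were subtracted. With the fibroblast sum it was -0.64, and -0.04 after centring. With the total count it was 0.19 and with the number of genes detected 0.40. By gene, the correlation of a member with the sum of the others ran from 0.25 (Sox17) to 0.71 (Egfl7), and after centring from 0.07 (Sox17) to 0.54 (Pecam1).

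**Figure D3:**
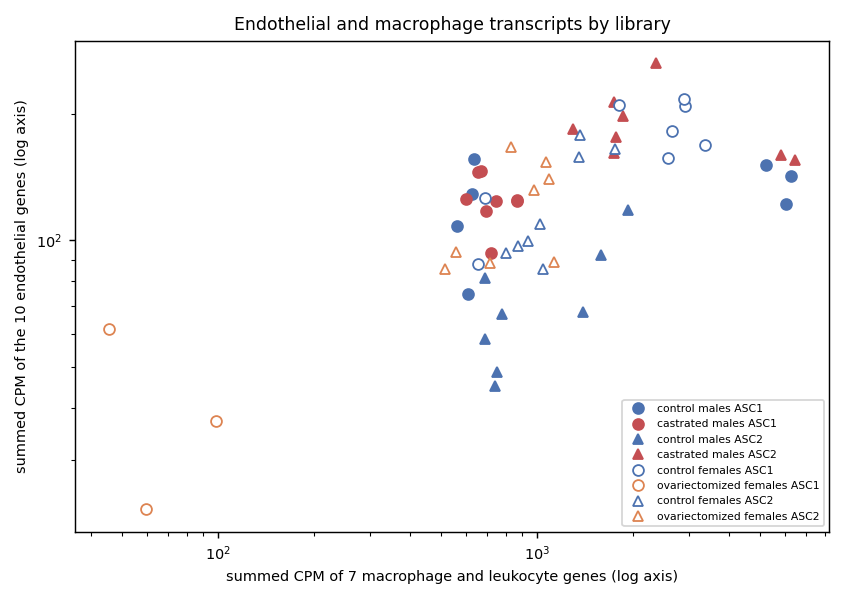
Summed level of the 10 endothelial genes against that of 7 macrophage and leukocyte genes. Both are in CPM on log axes, with one point per library. Colour marks control, castrated or OVX, circles are ASC1 and triangles ASC2, and filled points are male groups and open points female groups. The 3 OVX ASC1 libraries lie at 22.9 to 61.7 CPM on the endothelial axis and, at 45.7 to 99.1 CPM, lowest on the macrophage axis, and the castrated ASC2 libraries run from 156 to 264 CPM on the endothelial axis.

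Ovariectomy was compared in the same way. In ASC1 the 3 OVX libraries had summed endothelial levels of 22.9, 37.2 and 61.7 CPM, below all 8 control female ASC1 libraries (87.8, 175 and 217 CPM). Of the 9 genes tested 4 fell (Pecam1, Cdh5, Emcn and Egfl7), 9 were below 0 and the median log2 fold change was -2.08, but 34.8% of all genes were called in this comparison, 22.1% as lower, and the median of all genes was -0.34. Pecam1 gave 10 reads in library L and 0 in N and P, and Cdh5 gave 3, 0 and 0 reads. Both lay below all controls, as did Egfl7 at 10.3, 13.8 and 6.19 CPM. Log2 fold changes were -2.15 for Pecam1 (SE 0.62, adjusted p = 0.00494), -3.63 for Cdh5 (SE 0.77, adjusted p = 1.75e-04) and -2.08 for Egfl7 (SE 0.46, adjusted p = 3.48e-04). Emcn had 0 reads in all 3, which allows up to 2.38 CPM (3 reads over the group), at least 6.14-fold lower than the control mean of 14.6 CPM (adjusted p = 0.00266). With Emcn at this bound the median stays at -2.08, and Emcn missed the threshold without library L. Without L, Pecam1 and Cdh5 also had 0 reads in the OVX libraries left, and their fitted values of -7.39 and -7.32, like the median of -4.94, depend on the prior count and are no bounds. Esam (16.0, 9.18 and 12.4 CPM) lay within the control range of 5.35 to 29.99 CPM, and Cldn5 (13.7, 0 and 6.19 CPM) overlapped with that of 6.56 to 18.0 CPM. Groups did not overlap for the 4 called genes, which 13.1% of all genes did in this direction. These were the libraries with the high fibroblast level and with 45.7 to 99.1 CPM of macrophage genes, against 655 to 3356 CPM in controls. Their part in the result was not tested. The 2 control libraries that matched the female label had summed endothelial levels of 87.8 and 126 CPM, and the 6 others 157 to 217 CPM. Among matching libraries, an alternative chosen after seeing the data, 3 genes fell (Cdh5, Emcn and Egfl7), beside 26.9% of all genes called. Pecam1 stood there at -1.19 (adjusted p = 0.277), Esam at 1.06, and the median was -1.19.

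In ASC2 ovariectomy left no endothelial gene past the threshold: edgeR and DESeq2 called 0 of 9, and 2 had an unadjusted p under 0.05, beside 2.09% of all genes called. Those were Cdh5, at 1.85, 8.62 and 15.4 CPM in control and 4.95, 16.9 and 30.8 CPM in OVX (log2 fold change 0.92, SE 0.38, adjusted p = 0.237), and Vwf, at 0.983, 9.46 and 17.8 CPM in control and 0, 2.01 and 9.90 CPM in OVX (-1.68, SE 0.64, adjusted p = 0.178). Both overlapped between groups. Egfl7 had a log2 fold change of 0.11 (SE 0.25), and the median of the 9 genes was 0.12. The summed level was 85.5, 105 and 178 CPM in control and 85.7, 113 and 167 CPM in OVX, 2 ranges that nearly coincide. The 2 matching controls were at 85.5 and 93.4 CPM and the 6 others at 97.2 to 178 CPM. Among matching libraries 0 of 9 genes were called by edgeR and 0 had an unadjusted p under 0.05, beside 0.0253% of all genes called, and Vwf stood at 0.28.

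**Figure D4:**
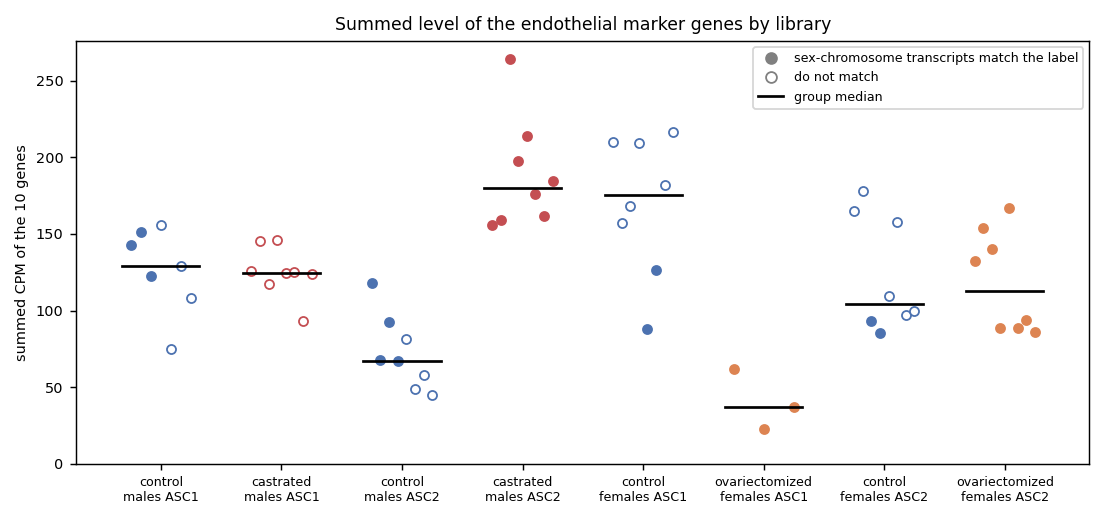
Summed level of the 10 endothelial genes in CPM (linear axis) in each library of the 8 groups, with a line at the group median. Castrated ASC2 libraries run from 156 to 264 CPM above all control male ASC2 libraries, and the 3 OVX ASC1 libraries run from 22.9 to 61.7 CPM below all control female ASC1 libraries.

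Control males and females were set against each other to ask about sex. In ASC1 0 of 9 genes were called by edgeR and by DESeq2, and 2 had an unadjusted p under 0.05, beside 0.289% of all genes called. They were Cdh5, at 6.66, 12.7 and 25.04 CPM in males and 16.1, 27.3 and 46.7 CPM in females (log2 fold change -1.07, SE 0.36, adjusted p = 0.3004), and Cldn5, at 0, 1.99 and 7.64 CPM in males and 6.56, 9.12 and 18.0 CPM in females (-2.02, SE 0.64, adjusted p = 0.247). Both overlapped between the sexes. In ASC1, 4 of 7 male and 6 of 8 female control libraries did not match their label, which limits what this comparison says about sex. Among matching libraries (3 male, 2 female) 146 of 11849 genes were called, and the log2 fold changes of Pecam1, Kdr, Flt1 and Egfl7 changed sign. In ASC2 2 of 9 genes were lower in the libraries labelled male, beside 6.5% of all genes called (2.87% as lower), and 8 of 9 were below 0 with a median of -0.80. Kdr was at 0, 4.36 and 7.69 CPM in males and 5.56, 10.9 and 22.2 CPM in females (-1.49, SE 0.46, adjusted p = 0.0369), and Egfl7 was at 9.50, 15.1 and 32.4 CPM in males and 15.8, 32.8 and 53.5 CPM in females (-0.80, SE 0.26, adjusted p = 0.0431). Both overlapped between groups. Among matching libraries (4 male, 2 female) 0 genes were called, with 3.0% of all genes called. Egfl7 stood there at a log2 fold change of 0.03, while Kdr stood at -1.52 (SE 0.80, adjusted p = 0.321). Single libraries decided the calls: the count was 0 without female library F or male library F, Egfl7 missed the threshold without female library A, B, F or G or male library B, D, F, G or H, and Kdr without female library C, E or F or male library D, E, F or G.

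ASC2 was compared with ASC1 within controls. In males Egfl7 was lower in ASC2 (9.50, 15.1 and 32.4 CPM) than in ASC1 (32.1, 35.7 and 55.8 CPM), with ASC2 library A alone reaching the ASC1 range (log2 fold change -1.04, SE 0.26, adjusted p = 0.00458). It was the 1 gene called of 9, beside 12.2% of all genes (5.3% as lower), and 8 of 9 genes were below 0 with a median of -0.79. In females Cdh5 was lower in ASC2 (1.85, 8.62 and 15.4 CPM) than in ASC1 (16.1, 27.3 and 46.7 CPM), without overlap (-1.73, SE 0.37, adjusted p = 9.60e-04), and was the 1 gene called, beside 6.11% of all genes (2.58% as lower). Groups did not overlap in this direction for 0.249% of all genes. Egfl7 had a log2 fold change of -0.40 (SE 0.25, adjusted p = 0.402) in females. The difference between the sexes was not tested. Among matching libraries the called gene in males was Cdh5 in place of Egfl7, beside 8.69% of all genes, and in females 0 genes were called, beside 1.36% of all genes. Comparisons that use the same control group share its libraries, so a low level in control male ASC2 enters the castration, sex and cell type comparisons alike.

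**Figure D5:**
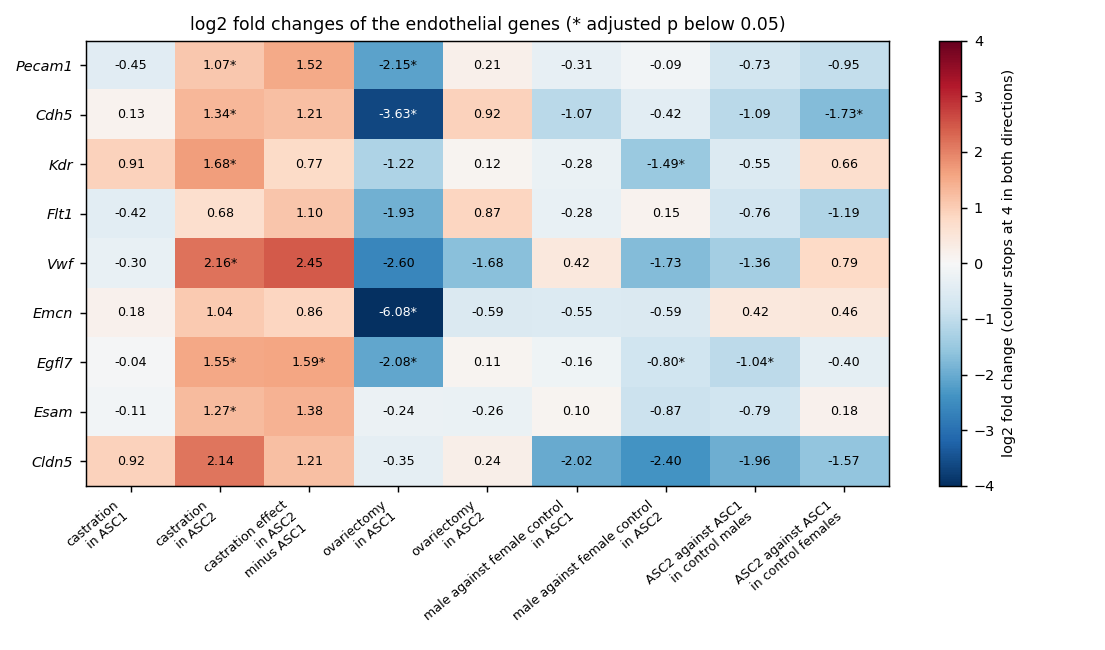
Log2 fold changes of the 9 endothelial genes tested (rows) in the 9 comparisons (columns), coloured by value, where a star marks an adjusted p under 0.05. Castration in ASC2 holds 6 stars, all higher, ovariectomy in ASC1 holds 4, all lower, and castration in ASC1 and ovariectomy in ASC2 hold none.

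Genes outside the list with the pattern most like the summed level were named by their correlation over the 58 libraries among 13788 genes, of which 95% lay below 0.472. Among the 8 highest were Hmox1 (0.77), a heme-degrading enzyme, Stab1 (0.73), a scavenger receptor, Csf1r (0.73), the receptor that macrophages depend on, Lgals3 (0.72), a galectin, Mink1 (0.71), a kinase, Timp1 (0.71), a metalloproteinase inhibitor, and Tnfaip2 (0.71). With the group means subtracted these values fell to between 0.25 (Timp1) and 0.53 (Mink1), and the 95th percentile to 0.281. The points share library depth and the differences between groups.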

How the data were processed

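Poly-A RNA of sorted ASC was sequenced with Smart-seq3. The authors trimmed reads with NGmerge, quantified them with Salmon 1.9.0 against Gencode M32 (GRCm39), added reads with and without molecular identifiers, and removed libraries with under 8500 genes. STAR 2.7.10a served for quality control. The deposited table holds estimated counts per gene (15% of the nonzero values were not whole), which were rounded. Library totals were 106562 to 1421518, which limits the precision of the low genes. No 2 libraries were copies of each other (lowest chi-square per gene 1.57).

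Counts were tested with edgeR 4.0.16 (R 4.3.3): TMM normalization, one coefficient for each of 8 groups over all 58 libraries, quasi-likelihood tests and a Benjamini-Hochberg threshold of 0.05 over the 12464 of 56953 genes that reached 5 reads in more than 3 libraries. The standard error is the log2 fold change divided by the root of F. CPM used TMM-scaled library sizes. The biological coefficient of variation was 35.6%. Symbols came from Gencode M21 by Ensembl identifier (12371 tested genes matched). A library matched a male label with 4 Y-chromosome genes at 20 CPM or more and Xist under 10 CPM, and a female label with Xist at 20 CPM or more and the Y-chromosome genes under 10 CPM. Correlations used log2(CPM + 1) and genes averaging at least 1 CPM.

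As alternatives, filterByExpr or no filter, unscaled library sizes or RLE, robust dispersions, only the groups compared, matching libraries, DESeq2 1.42.0, limma 3.58.1 voom and each library left out were tried. All 10 endothelial genes are named. From other lists, called genes averaging at least 5 CPM are named, at most 5 per list and comparison, and the 8 genes most like the summed level, 1 of which is not reported here. The genes and lists were chosen with earlier results of these data known. The edgeR fit was tested on simulated counts with 200 changed genes, for castration in ASC2 alone. These were drawn above a minimum mean count that Flt1, Vwf, Cldn5 and Sox17 did not reach, and label mismatch was not simulated. The simulation therefore does not cover those genes or that mismatch. The other fits were not tested in this way.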

Additional observations from a re-analysis of the deposited data

Results flagged for a closer look

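In 11 of 74 groups of libraries one value lay far from the others by Dixon's test at the 95% level, which flags about 1 group in 20 by chance. Pecam1 (32.4 CPM) and Vwf (11.7 CPM) were both high in control male ASC2 library A, whose Egfl7 was also the highest of its group. In castrated ASC2, Flt1 was high in library J (15.3 CPM) and Emcn in library K (46.4 CPM). In ASC1, Cdh5 was high in control male library C (25.04 CPM), Vwf in castrated library P (19.96 CPM) and Emcn in control female library A (45.9 CPM). In OVX ASC2, Flt1 was high in library J (18.2 CPM) and Vwf in library O (9.90 CPM). For Sox17 the values were single reads, at 0.783 CPM in control male ASC1 library C and 1.43 CPM in castrated ASC1 library L.

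The castration effect on Egfl7 differed between the cell types as labelled, with a log2 fold change larger by 1.59 in ASC2 than in ASC1 by the test of the interaction term. This difference cannot be told apart from the label mismatch of all 8 castrated ASC1 libraries.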

How the results depend on the processing

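Calls in castration in ASC2 numbered 4 to 6 across 10 other settings, and 2 among libraries whose sex transcripts matched the label. Fits of only the groups compared gave 2 calls for the ASC2 minus ASC1 difference and 1 for male against female ASC2. For the latter, DESeq2 gave 4, library size only 1, no filter 1 and matching libraries 0. ASC2 against ASC1 gave 2 calls with DESeq2 in control males and 0 among matching control females. Leaving out single libraries gave 4 to 6 calls for castration in ASC2, 1 to 3 for the difference, 3 to 4 for ovariectomy in ASC1, 0 to 3 for male against female ASC2, 1 to 2 for ASC2 against ASC1 in each sex, and 0 for the other 3 comparisons. For the difference the count was 3 without control male ASC2 library A and 2 without castrated ASC2 library J or O, control ASC1 library F or control ASC2 library E. For ASC2 against ASC1 it was 2 without control male ASC1 library G or ASC2 library A, D, E or G, and without control female ASC1 library E or ASC2 library B. For male against female ASC2 it was 1 without female A or B or male B, D, E, G or H. With the letters as a fixed replicate block, control males had 2 calls (Pecam1, Egfl7) and control females 1. With voom and the letters as a replicate block, counts were 5 for castration in ASC2, 2 in each sex for ASC2 against ASC1 and 1 for male against female ASC1, and no other count changed. Same-letter correlations ran from -0.264 to 0.382 and did not show that letters pair libraries.

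Directions turned mostly for uncalled values, the exception being Egfl7 in male against female ASC2 among matching libraries. With voom these were, in castration in ASC1, Flt1 (0.14) and Vwf (0.0744), and elsewhere Esam (0.10, ovariectomy in ASC1), Kdr (-0.0595, ovariectomy in ASC2), Vwf (-0.009) and Pecam1 (0.0087, male against female ASC1 and ASC2). With library size only, Egfl7 in castration in ASC1 was 0.0111. Without castrated I and J, Cdh5 there was -0.18. Without control male ASC1 B, C and D, Flt1, Vwf and Emcn there were 1.87, 1.66 and -0.0617, the Flt1 difference was -1.20, Vwf in male against female ASC1 was -1.54, and Flt1 and Vwf in ASC2 against ASC1 were 1.54 and 0.59. Among matching libraries, male against female turned for Pecam1 (0.63), Kdr (0.45), Flt1 (2.34) and Egfl7 (0.15) in ASC1 and for Pecam1 (0.64), Vwf (0.85), Emcn (1.18) and Egfl7 (0.0317) in ASC2, and ASC2 against ASC1 in females for Flt1 (0.50), Vwf (-0.42) and Emcn (-0.71). Ovariectomy turned there for Esam (1.06) in ASC1 and, in ASC2, for Kdr (-0.13), Vwf (0.28), Emcn (0.66), Esam (0.20) and Cldn5 (-0.0704). Leaving out single libraries turned 24 values. Their ranges in castration in ASC1 were -0.0595 to 0.38 (Cdh5), -0.0258 to 0.55 (Emcn), -0.19 to 0.078 (Egfl7), -0.21 to 0.0264 (Esam), -0.59 to 0.16 (Vwf) and -0.75 to 0.0813 (Flt1). In ovariectomy they were -1.90 to 0.13 (Cldn5, ASC1), and in ASC2 -0.0315 to 0.24 (Egfl7), -0.0581 to 0.26 (Kdr) and -0.0943 to 0.56 (Cldn5). In male against female they were -0.71 to 0.0103 (Kdr), -0.0626 to 0.30 (Esam), -0.28 to 0.0147 (Egfl7) and -0.0576 to 0.64 (Vwf) in ASC1, and -0.35 to 0.0774 (Pecam1) and -0.0356 to 0.31 (Flt1) in ASC2. CPM on total counts moved no group's mean sum by more than its SD. The cause of these changes was not tested. Sox17, Cldn5, Flt1 and Vwf rested on 6 to 253 reads over all libraries, so their values are the least precise.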
